A study of Mus musculus with 10 samples.

Results

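The genes described here make up the machinery of apoptosis, the regulated form of cell death, and a group of targets of the tumour suppressor p53. They are 45 named genes, taken by symbol from a count table of 55401 genes and 1146 subfamilies of transposable elements, and all 45 were found. RNA came from round spermatids, the haploid male germ cells that have completed meiosis and not yet elongated, isolated from adult male CD1 mice, an outbred stock. Under isoflurane, the testes of 5 mice were held against water at 42 °C for 30 min, and those of 5 control mice against water at 33 °C, close to the temperature of the scrotum. The mice woke and were then killed at once, so the cells were taken with no longer recovery. The labels name no genetic change in either group, anaesthesia was common to both, and the labels give neither the ages of the mice nor the way the spermatids were purified. The 5 libraries of each group are numbered 1 to 5, and the labels tie no heated library to a control library. The labels do not say in so many words that each library came from a separate mouse. If they did not, the p-values measure only the spread between these libraries.

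Apoptosis through mitochondria turns on the BCL2 family. Anti-apoptotic members hold back BAX and BAK, BH3-only proteins release them, and BAX and BAK then open the outer mitochondrial membrane. Cytochrome c that leaks out joins APAF1 and caspase-9 in the apoptosome, which starts the caspase cascade, while XIAP and its relatives inhibit caspases and DIABLO and HTRA2 counter those inhibitors. Death receptors such as FAS reach the caspases through FADD and caspase-8. p53 raises transcription of many of these genes and of arrest and repair genes after DNA damage, and MDM2 and PPM1D keep p53 low. Heating of the testis is known to kill germ cells, and the germ line has its own cytochrome c gene, Cyct.

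Promoter sequences from RefSeq (GRCm38.p6, from 250 bases before to 50 after each start) were found for 39 of the 45 genes. Htra2, Zmat3, Trp53inp1, Pmaip1, Bik and Rrm2b had no entry. On both strands, the cAMP response element TGACGTCA was in the promoters of 3 of the 39 genes, against 2.03% of all 27025 genes with a promoter, and the p53 core pair, CATG repeated after 6 bases, was in 1 of the 39, against 0.833%. These 4 stretches are shown because they hold a motif of p53 or of the cAMP-responsive factors known to act in round spermatids. Each is printed 5′ to 3′ on the strand of its gene, and capitals mark the letters of the motif.
Cdkn1a, chr17:29090905-29090970 (+): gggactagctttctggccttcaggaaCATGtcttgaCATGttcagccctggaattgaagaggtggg
Ppm1d, chr11:85311143-85311202 (+): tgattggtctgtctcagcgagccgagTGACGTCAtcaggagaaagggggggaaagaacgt
Birc2, chr9:7837059-7837118 (-): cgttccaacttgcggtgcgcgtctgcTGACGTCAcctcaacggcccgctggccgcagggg
Cycs, chr6:50566705-50566764 (-): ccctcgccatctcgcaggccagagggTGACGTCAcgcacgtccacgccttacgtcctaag
The motif began 48 bases before a RefSeq transcript start in Cdkn1a, 85 in Ppm1d, 35 in Birc2 and 169 in Cycs. Some genes had more than 1 such start, as 55 promoters of the 39 genes were searched. Whether round spermatids use these starts was not tested. A heat shock element of 3 boxes, alternating GAA and TTC and 2 bases apart, was in none of the 39 genes and in 0.662% of all genes. Among common promoter motifs, CCAAT was in 21 of the 39 genes and 41.1% of all, GGGCGG in 30 of the 39 and 38.2% of all, and TATAAA in Trp53 and Xiap, 2 of the 39, and 15.7% of all. These matches describe letters in a window, and no binding was measured.

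Library totals ran from 60623568 counts in 42 °C library 2 to 117723075 in 33 °C library 2. Transposable elements took 16.2% of counts in 42 °C library 2 and from 4.62 to 9.07% in the others. Levels below are CPM (counts scaled to a common library total) on library sizes scaled by the trimmed mean of M values, and tests are edgeR's quasi-likelihood test with Benjamini-Hochberg adjustment over 26025 features. Summed over 10 markers, round spermatid genes came to 1189.6 to 2252.9 CPM at 33 °C and 1555.7 to 2388.7 CPM at 42 °C. Markers of meiotic spermatocytes were also present, 753.7 to 1164.2 CPM over 9 genes at 33 °C and 594.1 to 891.1 CPM at 42 °C. So were 9 genes listed as markers of elongating spermatids, at 2474.0 to 5311.5 and 3100.0 to 7674.6 CPM. Whether the RNA of these 9 genes came from elongating or from round spermatids was not tested. Leydig cell markers reached 18.9 CPM in 33 °C library 3 and 2.77 to 7.45 CPM in the other 9 libraries. No tested marker of the 10 cell types listed passed the test, and some markers had too few counts to be tested. At 42 °C, log2 fold changes were positive for 9 of 9 elongating and 9 of 10 round spermatid markers (medians 0.34, 0.29). They were negative for 7 of 9 spermatocyte and 7 of 7 Leydig cell markers (medians -0.27, -0.81). Fewer cells of a type and less RNA per cell cannot be told apart in such bulk samples.

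After 30 min of heat, no gene of this machinery passed the test in either direction. Of the 45 genes, 39 had enough counts to be tested, and edgeR's quasi-likelihood test gave adjusted p-values of 0.307 to 0.943 for them. Across all features the same test called 23 higher at 42 °C, or 0.0884%, and 1 lower, or 0.00384%. At an unadjusted p under 0.05, 2 of the 39 were higher (Rrm2b and Bcl2l11) against a background of 8.56%, and 4 were lower (Htra2, Zmat3, Birc2 and Trp53) against 2.94%. DESeq2 called 1 of the genes, Rrm2b, among 308 features higher at 42 °C, or 0.911% of 33825, and limma voom called none.

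The estimates were mostly small and leaned downwards. Log2 fold changes at 42 °C against 33 °C ranged from -0.39 to 1.03, with a median of -0.15, and 26 of the 39 were below 0. The median was -0.06 with limma voom and -0.08 without 33 °C library 2, and the median deviation of the genes at 1 CPM or more had an SD of 0.12 (log2) between libraries of a group. The median over all features was -0.01. The lean grew with level and was shared with other genes: 11 of 14 genes at 10 CPM or more were negative with a median of -0.23, and 69.8% of protein-coding genes at that level were negative with a median of -0.12. Below 1 CPM the median was 0.05 both for the 10 tested genes of the machinery and for protein-coding genes. For 33 of the 39 genes the 95% interval lay wholly within 1 log2 unit of 0, a share of 84.6% against 68.8% of all features and 79.7% of protein-coding genes. The spread between libraries was moderate, with a median coefficient of variation of 19.9% at 33 °C and 18.6% at 42 °C.

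**Figure D1:**
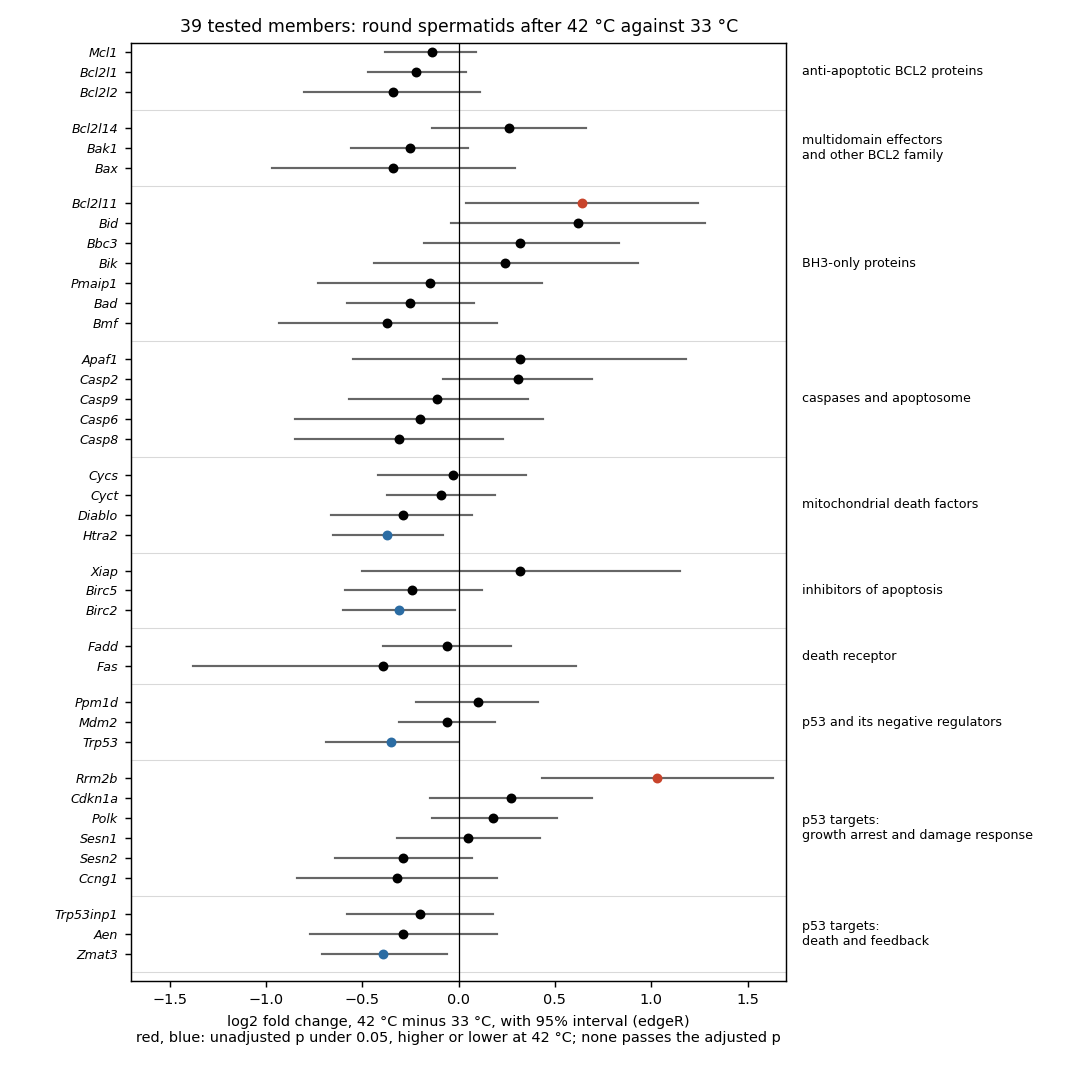
Log2 fold change at 42 °C against 33 °C (horizontal axis) for the 39 tested genes, grouped by role, with 95% intervals from edgeR. Rrm2b stands farthest to the right at 1.03, and most others lie between -0.39 and 0.32 with intervals that cross 0.

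Levels differed far more between the genes than between temperatures. Per kilobase of exon at 33 °C, Ppm1d was highest at 125.3 CPM per kb, above Mdm2 at 42.1, and the ranges of their libraries did not overlap. Both encode brakes on p53, whose own transcript stood at 2.27 CPM per kb. Bcl2l14 (42.0), Bcl2l1 (37.7), Cyct (35.6), Diablo (26.1) and Birc2 (25.9 CPM per kb) followed, each overlapping its neighbour in the order. Lower down, the library ranges of Birc2 and Birc5, Polk and Bak1, Bak1 and Zmat3, Zmat3 and Sesn2, and Trp53 and Cycs also did not overlap, and those of all other neighbours in the order did. At the other end, Bcl2 was last of the 45 at 0.00636 CPM per kb, and Xiap (0.0144) and Apaf1 (0.0293 CPM per kb) were not far above it.

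**Figure D2:**
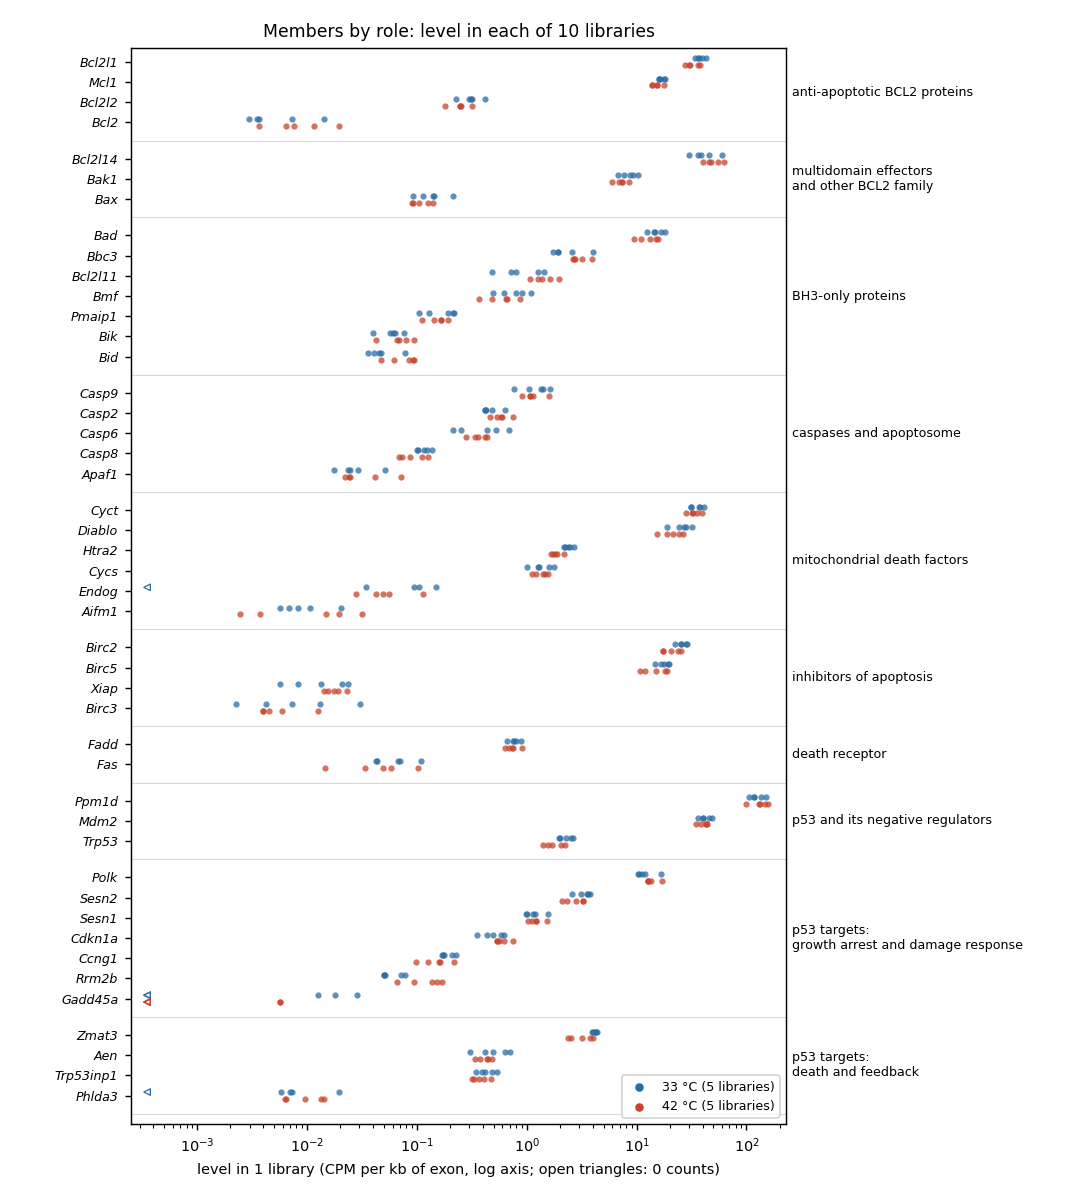
Level of each of the 45 genes in CPM per kb of exon (log axis), by role, with each library as a point at 33 °C and 42 °C. Ppm1d is highest at 125.3 CPM per kb at 33 °C and Bcl2 lowest at 0.00636, and the points of both temperatures overlap for all tested genes but Htra2.

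Among the anti-apoptotic genes, the main transcripts in these cells were Bcl2l1, which encodes BCL-XL, and Mcl1. Bcl2l1 was at 164.4, 194.5, 155.9, 180.8 and 168.9 CPM in the 33 °C libraries and at 167.4, 125.9, 172.6, 140.3 and 138.2 CPM in the 42 °C libraries. Libraries 1 and 3 at 42 °C lay within the control range and libraries 2, 4 and 5 lay below it, for a log2 fold change of -0.22 (SE 0.12, adjusted p = 0.477 by edgeR). Mcl1, a short-lived guard of mitochondria, was at 54.1, 61.0, 54.3, 62.2 and 56.0 CPM and then at 61.0, 46.8, 52.5, 46.9 and 52.9 CPM. Heated library 1 sat among the controls and the other 4 were below every control, and the log2 fold change was -0.14 (SE 0.11). Bcl2l2, which encodes BCL-W, averaged 1.41 ± 0.300 and 1.11 ± 0.216 CPM (SD, n = 5 each), a log2 fold change of -0.34 (SE 0.21). Its exons share 594 bases with the more abundant Gm20521 on the same strand, so its count is uncertain. Bcl2 itself was too scarce to test, with a total of 28 counts at 33 °C and 38 at 42 °C. Its level was 0.0662, 0.0272, 0.132, 0.0320 and 0.0338 CPM at 33 °C and 0.0703, 0.178, 0.0595, 0.0336 and 0.105 CPM at 42 °C, and the groups overlapped.

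Of the pair of genes for pore-forming effectors, transcripts of Bak1 were well represented and those of Bax were scarce. Bak1 was at 18.5, 22.3, 24.7, 21.1 and 16.2 CPM at 33 °C and 17.6, 16.5, 20.3, 14.3 and 17.6 CPM at 42 °C. All but 42 °C library 4 lay within the control range, and the log2 fold change was -0.25 (SE 0.14). The exons of Bak1 share 437 bases with Ggnbp1 and 177 with Gm50253, both more abundant and on the opposite strand. Bax was at 0.221, 0.145, 0.335, 0.224 and 0.180 CPM and then at 0.141, 0.163, 0.198, 0.146 and 0.220 CPM. Those groups overlapped broadly, with a log2 fold change of -0.34 (SE 0.29). The exons of Bax share 192 bases with Gm45808 on the same strand, so its count is uncertain. Per kb at 33 °C, Bak1 stood at 8.55 and Bax at 0.140 CPM. Bcl2l14, which encodes the BCL2 relative BCL-G, averaged 171.9 ± 47.1 and 205.6 ± 35.5 CPM (SD, n = 5 each), a log2 fold change of 0.26 (SE 0.18).

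The BH3-only genes, the sensors of the family, were the only apoptotic group with a positive median, 0.24 on the log2 scale over 7 genes, of which 4 were positive. Bcl2l11, which encodes BIM, was at 6.35, 5.81, 10.1, 3.88 and 11.5 CPM at 33 °C and at 8.54, 11.0, 10.1, 15.7 and 13.2 CPM at 42 °C. Libraries 4 and 5 at 42 °C were above every control, and the other 3 lay inside a wide control range. Its log2 fold change was 0.64 (SE 0.28, 95% interval 0.04 to 1.24, unadjusted p = 0.0385, adjusted p = 0.426 by edgeR), and it ran from 0.47 to 0.88 when each library was left out in turn. The gene lies at chr2:128126038-128162547 on the plus strand. With the ratio of spermatocyte to round spermatid markers added to the fit, a choice made after seeing the data, its log2 fold change was 0.32.

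Bid, which links death receptors to mitochondria, was at 0.143, 0.127, 0.274, 0.160 and 0.169 CPM at 33 °C and at 0.221, 0.326, 0.168, 0.302 and 0.335 CPM at 42 °C. Heated libraries 2, 4 and 5 were above every control and libraries 1 and 3 lay within the control range, and the log2 fold change was 0.62 (SE 0.30, 95% interval -0.04 to 1.28, adjusted p = 0.456 by edgeR). The gene begins 14854 bases past the end of Mical3, a gene on the same strand whose level was 419.7 times that of Bid and whose log2 fold change was 0.33 (SE 0.36). Whether RNA that continued past Mical3 entered the count of Bid was not tested. Its exons also share 628 bases with the more abundant Bcl2l13 on the opposite strand. Bbc3, which encodes the p53-induced protein PUMA, was at 8.44, 5.46, 4.12, 3.69 and 4.07 CPM and then at 5.81, 8.38, 5.73, 5.62 and 6.76 CPM. Every heated library was above 4 of the 5 controls, while control library 1 was the highest of all 10, and the log2 fold change was 0.32 (SE 0.23). Pmaip1, which encodes the p53 target NOXA, was at 0.287, 0.525, 0.599, 0.587 and 0.349 CPM and then at 0.452, 0.519, 0.456, 0.302 and 0.387 CPM. All its heated libraries were within the control range, with a log2 fold change of -0.15 (SE 0.27). Bad, Bmf and Bik, which encode further BH3-only sensors, had log2 fold changes of -0.25, -0.37 and 0.24, with SEs of 0.15, 0.26 and 0.31. Bad was by far the highest of these 3 at 15.3 CPM per kb at 33 °C, against 0.781 for Bmf and 0.0594 for Bik, and its exons overlap Gpr137 on the opposite strand.

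**Figure D3:**
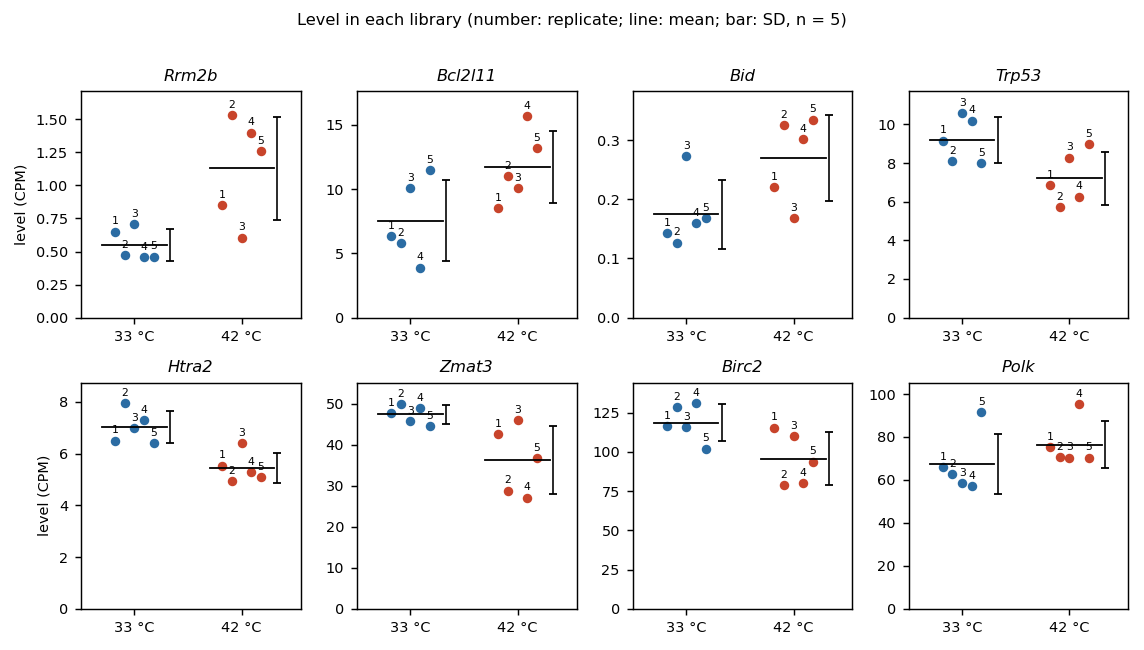
CPM in each of the 10 libraries, 33 °C and 42 °C, for Rrm2b, Bcl2l11, Bid, Trp53, Htra2, Zmat3, Birc2 and Polk, with the mean as a line and the SD as a bar (n = 5 each). Rrm2b and Bcl2l11 have more high points at 42 °C and Trp53, Zmat3 and Birc2 more low points, with the groups overlapping in these 5 genes.

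Caspase transcripts were scarce. Casp9, the apoptosome's initiator caspase, was at 7.03, 5.49, 8.50, 7.28 and 4.00 CPM at 33 °C and at 5.54, 8.21, 5.60, 4.75 and 5.92 CPM at 42 °C, all of the latter inside the control range. Its log2 fold change was -0.11 (SE 0.21). Casp8, which acts below death receptors, was at 0.397, 0.299, 0.335, 0.288 and 0.361 CPM and then at 0.321, 0.252, 0.198, 0.213 and 0.366 CPM. Heated libraries 2, 3 and 4 were below every control and libraries 1 and 5 were among them, for a log2 fold change of -0.31 (SE 0.25). Apaf1, the scaffold of the apoptosome, was at 0.221, 0.263, 0.467, 0.213 and 0.158 CPM and then at 0.221, 0.652, 0.218, 0.202 and 0.377 CPM. The highest value was in 42 °C library 2, and the log2 fold change of 0.32 (SE 0.40) became -0.02 without that library. Casp2, an initiator linked to DNA damage, had a log2 fold change of 0.31 (SE 0.18), and Casp6, an executioner, -0.20 (SE 0.30).

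The mitochondrial death factors were all slightly negative where tested, with a median of -0.19 over 4 genes. Cyct, the testis form of cytochrome c, was at 20.3, 24.2, 24.7, 26.9 and 20.4 CPM at 33 °C and at 25.6, 20.8, 23.1, 18.6 and 21.3 CPM at 42 °C. Only heated library 4 was outside the control range, and the log2 fold change was -0.09 (SE 0.13). Cycs, the somatic form, was at 4.38, 5.43, 3.45, 4.29 and 6.04 CPM and then at 5.31, 3.78, 4.17, 5.00 and 4.80 CPM, entirely within the control range, with a log2 fold change of -0.03 (SE 0.18). Per kb, Cyct exceeded Cycs by a ratio of 26.9 ± 7.91 (SD, n = 5) in control libraries and 24.9 ± 3.97 (SD, n = 5) in heated ones, and the ranges of the ratio overlapped.

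Htra2, a mitochondrial protease that counters inhibitors of apoptosis, was the only one of the 39 genes whose groups did not overlap. It was at 6.50, 7.94, 6.98, 7.29 and 6.41 CPM at 33 °C and at 5.53, 4.94, 6.41, 5.28 and 5.10 CPM at 42 °C. The separation was minimal, since control library 5 and heated library 3 have the same value as printed. Its log2 fold change was -0.37 (SE 0.13, 95% interval -0.65 to -0.08, unadjusted p = 0.0161, adjusted p = 0.386 by edgeR). Across all features, 0.68% had groups that did not overlap and were lower at 42 °C, and 1.32% were higher, with none of the 39 among the latter. Htra2 lies at chr6:83051266-83055273 on the minus strand, and its exons share 753 bases with Aup1 and 535 bases with Loxl3, both on the opposite strand. Aup1 had a log2 fold change of -0.10 (SE 0.12). Loxl3 averaged 0.0765 ± 0.0824 CPM (SD, n = 5) in control and 0.544 ± 0.245 CPM (SD, n = 5) in heated libraries, a log2 fold change of 2.80 (SE 0.55, adjusted p = 0.132 by edgeR) with groups that did not overlap. The labels do not say whether counting used strand. The part of the overlapping genes in the Htra2 value was not tested.

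Diablo, whose protein also releases caspases from their inhibitors, averaged 160.8 ± 29.4 and 131.1 ± 27.2 CPM (SD, n = 5 each), a log2 fold change of -0.29 (SE 0.17). It shares 1193 exon bases with Gm49027 on the same strand, which had a similar log2 fold change of -0.31 (SE 0.17), so the count of each is uncertain. Aifm1 and Endog, which encode factors that act on chromosomal DNA, were not tested, at 20 and 39 counts over the 33 °C libraries and 27 and 29 over the 42 °C libraries. Endog shares 379 exon bases with the far more abundant Spout1 on the opposite strand, so its count is uncertain.

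Among the inhibitors of apoptosis, Birc2, a ubiquitin ligase also known as cIAP1, and Birc5, or survivin, were abundant, and Xiap was not. Birc2 was at 116.2, 128.4, 115.6, 130.8 and 102.0 CPM at 33 °C and at 115.4, 78.8, 109.8, 79.9 and 93.8 CPM at 42 °C. Heated libraries 2, 4 and 5 were below every control, and libraries 1 and 3 were among the controls. For Birc2 the log2 fold change was -0.31 (SE 0.13, 95% interval -0.60 to -0.02, unadjusted p = 0.0368, adjusted p = 0.423 by edgeR). Birc2 lies at chr9:7818227-7837064 on the minus strand, and its promoter stretch with the cAMP response element is printed above. Birc5, which also serves chromosome segregation, averaged 59.8 ± 7.13 and 50.8 ± 12.2 CPM (SD, n = 5 each), a log2 fold change of -0.24 (SE 0.16). Xiap was at 0.199, 0.127, 0.223, 0.0534 and 0.0789 CPM and then at 0.181, 0.148, 0.168, 0.134 and 0.220 CPM. Its heated libraries were all inside the control range, and the log2 fold change was 0.32 (SE 0.38). Birc3, or cIAP2, had 28 counts over the 33 °C libraries and 14 over the 42 °C libraries and was not tested.

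The death receptor gene Fas was near the limit of detection, at 0.0883, 0.145, 0.223, 0.139 and 0.0902 CPM at 33 °C and at 0.0301, 0.119, 0.0694, 0.101 and 0.209 CPM at 42 °C. Heated libraries 1 and 3 were below every control and the others were among them. The log2 fold change was -0.39 with an SE of 0.46, the widest uncertainty of the 39 genes. Fadd, its adaptor, averaged 3.02 ± 0.314 and 2.89 ± 0.388 CPM (SD, n = 5 each), a log2 fold change of -0.06 (SE 0.15).

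Trp53, the mouse gene for p53, was at 9.16, 8.09, 10.6, 10.2 and 7.99 CPM at 33 °C and at 6.86, 5.71, 8.29, 6.26 and 8.97 CPM at 42 °C. Heated libraries 1, 2 and 4 were below every control, and libraries 3 and 5 lay in the control range. This gave a log2 fold change of -0.35 (SE 0.16, 95% interval -0.69 to -0.0035, unadjusted p = 0.0481, adjusted p = 0.434 by edgeR). The gene lies at chr11:69580359-69591873 on the plus strand. Mdm2, which encodes the ligase that marks p53 for destruction and is itself a p53 target, was at 205.4, 230.1, 182.5, 203.4 and 249.1 CPM and then at 222.2, 176.7, 216.1, 216.0 and 196.0 CPM. Only heated library 2 fell outside the control range, and the log2 fold change was -0.06 (SE 0.12, 95% interval -0.31 to 0.19). Ppm1d, the phosphatase WIP1, averaged 397.7 ± 59.5 and 424.7 ± 71.1 CPM (SD, n = 5 each), a log2 fold change of 0.10 (SE 0.15).

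Among the arrest and damage targets of p53, Rrm2b had the largest estimate of all 39 genes. It encodes the p53-inducible small subunit of ribonucleotide reductase, which supplies DNA precursors for repair. Rrm2b was at 0.651, 0.471, 0.710, 0.459 and 0.462 CPM at 33 °C and at 0.853, 1.53, 0.605, 1.40 and 1.26 CPM at 42 °C. Heated libraries 1, 2, 4 and 5 were above every control, and library 3 lay inside the control range. The log2 fold change was 1.03 (SE 0.28, 95% interval 0.43 to 1.63, unadjusted p = 0.00282), with an adjusted p of 0.307 by edgeR and 0.0279 by DESeq2. Leaving out each library in turn gave 0.94 to 1.19, and limma voom with sample quality weights gave 0.63 (adjusted p = 0.211). The gene lies at chr15:37923952-37961318 on the minus strand. Gm3362, which lies within Rrm2b on the same strand and shares no exon base with it, had 40 counts at 33 °C and 69 at 42 °C, a log2 fold change of 0.85 (SE 0.48).

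Cdkn1a, which encodes the cell-cycle inhibitor p21 and is the usual marker of p53 activity, was at 1.53, 2.08, 1.75, 1.25 and 2.22 CPM at 33 °C and at 1.89, 1.90, 2.19, 1.99 and 2.67 CPM at 42 °C. Heated library 5 was the highest of all and the other 4 were within the control range. The log2 fold change was 0.27 (SE 0.20, 95% interval -0.15 to 0.69, adjusted p = 0.554 by edgeR). It is the gene whose promoter stretch with the p53 core pair is printed above. The exons of Cdkn1a share 273 bases with 1700023B13Rik on the opposite strand, which had a log2 fold change of 0.27 (SE 0.30). The part of that gene in the Cdkn1a count was not tested. Sesn1 and Sesn2, which encode sestrins that restrain the growth kinase mTORC1, had log2 fold changes of 0.05 and -0.29, with SEs of 0.17 and 0.16. Polk, a DNA polymerase that copies past damage, had 0.18 (SE 0.15), and Ccng1, which encodes cyclin G1, had -0.32 (SE 0.24). Gadd45a, a damage-response gene, had 10 counts over the 33 °C libraries and 2 over the 42 °C libraries and was not tested.

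The death and feedback targets of p53 were all negative where tested. Zmat3, which encodes an RNA-binding zinc finger protein, was at 47.6, 49.9, 45.7, 49.0 and 44.6 CPM at 33 °C and at 42.6, 28.8, 46.0, 27.1 and 36.7 CPM at 42 °C. Only heated library 3 reached the narrow control range, and libraries 2 and 4 were far below it. Its log2 fold change was -0.39 (SE 0.15, 95% interval -0.71 to -0.06, unadjusted p = 0.0232, adjusted p = 0.394 by edgeR). Zmat3 lies at chr3:32334792-32366014 on the minus strand. Trp53inp1, which encodes a partner of p53, and Aen, which encodes an apoptosis-enhancing nuclease, had log2 fold changes of -0.20 and -0.29, with SEs of 0.18 and 0.22. Phlda3, which encodes an inhibitor of AKT signalling, had 6 counts over the 33 °C libraries and 7 over the 42 °C libraries and was not tested.

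Some libraries stood low or high for many of the genes at once. Over the 29 genes at 1 CPM or more, 33 °C library 5 held the lowest value of its group for 16, and at 42 °C libraries 2 and 4 held it for 13 and 11. Library 5 at 33 °C and library 4 at 42 °C were also the ones with the lowest spermatocyte markers of their group, at 753.7 and 594.1 CPM, and the highest round spermatid markers, at 2252.9 and 2388.7 CPM. The same 2 libraries were the highest of their groups for Ppm1d, Bcl2l14, Bcl2l11 and Polk. Library 2 at 42 °C differed, with the fewest round spermatid markers of its group, at 1555.7 CPM, and spermatocyte markers at 692.5 CPM. With the ratio of those marker sums in the fit, no gene of the 39 passed the test, and their median log2 fold change was -0.05. The estimate for Rrm2b was then 0.94 and that for Bid 0.63, those for Trp53, Birc2 and Zmat3 were -0.20, -0.17 and -0.26, and that for Htra2 was -0.31. Among the 16 genes below 1 CPM, 33 °C library 3, the library with the most Leydig cell markers, held the highest value of its group for 12. Whether RNA from other cells contributed to those 16 counts was not tested.

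**Figure D4:**
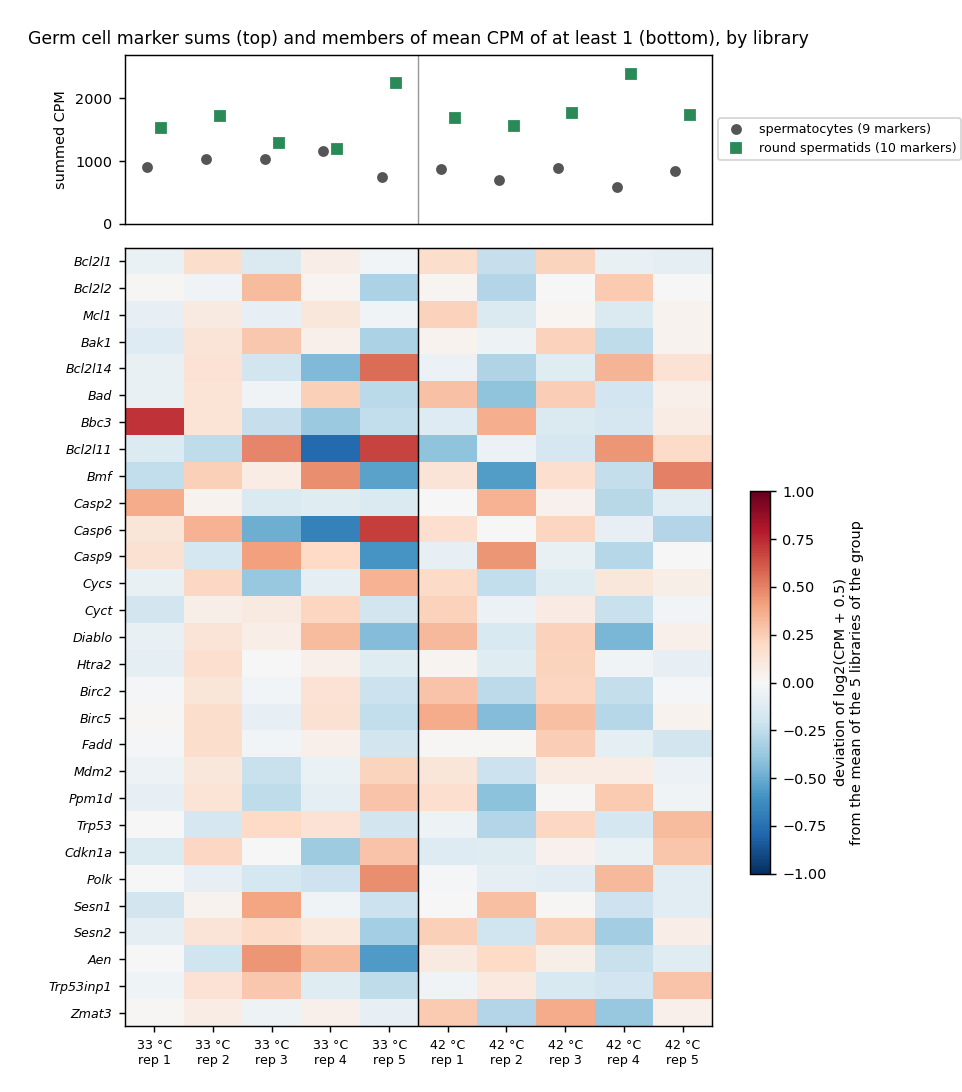
By library, the summed CPM of spermatocyte and round spermatid markers (top) and the deviation of each of 29 genes from its group mean on the log2 scale (bottom). Libraries 33 °C 5 and 42 °C 4 have the fewest spermatocyte and the most round spermatid markers of their groups, and medians of -0.18 and -0.17 for the 29 genes. Library 42 °C 2 has the fewest round spermatid markers of its group and a median of -0.14.

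Among other genes of both pathways, none passed the test either. Of 38 further apoptosis genes, 25 were tested by edgeR, with 10 positive and 15 negative log2 fold changes, a median of -0.08 and 0 past the threshold. Only Acin1, which encodes a chromatin-condensing factor, had an unadjusted p under 0.05, with a log2 fold change of -0.24 (SE 0.10, adjusted p = 0.428). The next 3 were Ripk1, a kinase below death receptors, at -0.29 (SE 0.14), Ppif, the mitochondrial cyclophilin, at -0.32 (SE 0.20), and Birc6, a large inhibitor of apoptosis, at -0.16 (SE 0.11). Of 38 further p53 targets and regulators, 34 were tested, with 10 positive and 24 negative, a median of -0.12 and 0 past the threshold. The 3 with an unadjusted p under 0.05 were all lower at 42 °C: Wrap53 at -0.47 (SE 0.16), Pml at -0.46 (SE 0.17) and Bloc1s2 at -0.30 (SE 0.14), with adjusted p-values of 0.383, 0.386 and 0.430 by edgeR. Wrap53 lies next to Trp53 on the opposite strand and encodes a protein of Cajal bodies, and Pml encodes the scaffold of nuclear bodies that recruit p53. The next in order was Trp53i11, named as a p53-inducible gene, at -0.23 (SE 0.12). Of all tested protein-coding genes, 59.6% were negative, with a median of -0.07, as were 69.8% of those at 10 CPM or more. At an unadjusted p under 0.05 by edgeR, 2.94% of all features were lower at 42 °C and 8.56% were higher. Too scarce to test were 13 of the apoptosis genes, with at most 92 counts each over all libraries, and 4 of the p53 genes. Of those 4, Psrc1 had 11 counts over the 33 °C libraries and 55 over the 42 °C libraries. Eda2r had 39 and 30, Dcxr 12 and 8, and Sfn 3 and 2.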

How the data were processed

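Ribosome-depleted, stranded total RNA libraries from 5 control and 5 heated mice were sequenced as paired reads, per the labels' protocols. The authors deposited raw counts per gene and per transposable element subfamily in 1 table. GRCm38 (mm10), DRAGEN, Trim Galore and cutadapt are named in the submitters' processing notes, while neither the counting tool nor its strand setting is given there.

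Genes and elements were fitted together with edgeR 4.0.16 in R 4.3.3 (TMM scaling, filterByExpr with a minimum count of 10 and a minimum total of 15, quasi-likelihood test, adjusted p under 0.05). Exon lengths are unions of GENCODE M21 exons. Of 55141 shared gene identifiers, 99.4% had the same coordinates there. Alternatives used DESeq2 1.42.0, limma 3.58.1 voom, other scalings and filters, a replicate block and each library left out. The fits were tested on simulated data. No library pair within a group agreed within sampling noise. The closest pair, 42 °C libraries 1 and 3, had a chi-square of 13.9 per degree of freedom, against 52.6 to 290 for the others. Why these libraries were the most alike was not tested.

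The genes, their roles and the pathway and marker lists were chosen with earlier results of these data known. Values in every library are given for 18 preset core genes and for genes with an unadjusted p under 0.05. The other genes are given by their mean, log2 fold change or total, and up to 4 other genes per pathway by smallest p. Untested genes of the further p53 list are given by their counts. Some genes are not reported here.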

Additional observations from a re-analysis of the deposited data

Results flagged for a closer look

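Among 78 groups of 5 libraries, 3 held a library far from the other 4, where chance gives about 1 group in 20. Bid was at 0.274 CPM in 33 °C library 3 and at 0.127 to 0.169 CPM in the other controls. Polk, the translesion polymerase gene, was at 91.6 CPM in 33 °C library 5 against 57.3 to 66.1 CPM in the other controls, and at 95.4 CPM in 42 °C library 4 against 70.4 to 75.2 CPM in the other heated libraries. Library 3 at 33 °C held the most Leydig cell markers, and the 2 libraries high for Polk held the fewest spermatocyte markers of their groups. The part of either in these values was not tested.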

How the results depend on the processing

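Of 663 values of single genes under the alternatives, 636 kept their sign and their side of the threshold, 26 changed sign and 1, Rrm2b with DESeq2, passed the threshold, so that DESeq2 called 1 gene of the machinery. For 26 of the 39 genes the sign held in every alternative run. Over all features, 23 higher and 1 lower became 308 and 41 with DESeq2, 124 and 29 with limma voom, 73 and 3 with no filter on low counts, 5 and 0 with the marker ratio as a covariate (added after seeing the data), and 10 to 21 and 0 to 2 with each library left out. The lowest number, 10, was without 33 °C library 4, and 12, 15, 14, 15 and 14 were higher without 33 °C library 1 and 42 °C libraries 1, 2, 4 and 5. With a replicate block, 4 and 0 passed and no gene of the machinery did. Libraries with the same number correlated at -0.557 to -0.104 in their deviations, and none of them matched its own number best, so the numbers do not show a pairing.

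Some genes changed sign, and not only those near 0. In the main fit, Apaf1 was at 0.32, Aen at -0.29, Bcl2l14 at 0.26 and Casp6 at -0.20. The log2 fold change of Cycs was 0.01 with genes only, 0.06 with limma voom and 0.01 with no filter, and -0.13 to 0.11 with each library left out. With limma voom, Pmaip1 was at 0.08, Cyct at 0.03 and Mdm2 at 0.02. With each library left out, Sesn1 ran from -0.01 to 0.17, Fadd from -0.14 to 0.04, Mdm2 from -0.11 to 0.04, Casp9 from -0.21 to 0.01, Casp6 from -0.37 to 0.08 and Apaf1 from -0.02 to 0.62. With the marker ratio in the fit, Bcl2l14 was at -0.0038, Pmaip1 at 0.16, Casp9 at 0.21, Cyct at 0.06, Fadd at 0.02, Ppm1d at -0.05, Polk at -0.04 and Aen at 0.09. The cause of these changes was not tested. Counts limit what can be said of the 6 untested genes and of the 10 tested genes below 1 CPM, of which 5 had intervals wholly within 1 log2 unit of 0.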

Other observations

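The levels that follow are of partners of these genes, chosen after their values were seen. Of the genes for the voltage-dependent anion channels of the outer mitochondrial membrane, Vdac2 stood at 154.0 CPM per kb at 33 °C, Vdac3 at 60.3 and Vdac1 at 0.155. Vdac2, whose protein is known to bind BAK, and Vdac3 both had a log2 fold change of -0.20 at 42 °C, with SEs of 0.15 and 0.16. Fasl, the ligand gene of the FAS receptor, stood at 0.674 CPM per kb at 33 °C and Fas at 0.0665. In the p53 pathway, Mdm4, another inhibitor of p53, stood at 10.4 CPM per kb at 33 °C, and the damage kinase genes Atr and Atm at 11.8 and 0.455. Of the relatives of p53, Trp63 was at 0.435 and Trp73 at 0.0462 CPM per kb, both below Trp53 at 2.27. None of these genes passed edgeR's test at 42 °C.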
